A study of Homo sapiens with 2 samples.

Results

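The genes described here are 31 that encode basement membrane proteins: the laminin chains, the collagen IV chains, the nidogens, the heparan sulfate proteoglycans and their relatives, the Fraser complex proteins, and a few matricellular proteins that bind them. They were chosen by symbol, as 31 of the 36601 genes listed in each count matrix, and no measured value entered the choice. The question was which cells carried the transcripts of each chain, and whether that differed between organoids in a laminin-rich matrix and in a gelatin matrix.

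The cells came from human inner ear organoids on day 40, grown from an embryonic stem cell line (WA25) in which nuclear tdTomato reports on SOX2, whose product is a transcription factor of neural, glial and otic progenitors. The 2 groups were Matrigel, a basement membrane extract rich in laminin, collagen IV, nidogen and perlecan, and GelNB-CH, a gelatin-based hydrogel set with light and a thiol crosslinker. There was 1 library per group. Both groups shared the reporter line, the release with Accutase, the sort for reporter-positive cells, and the early culture: FGF-2, a TGF-beta receptor inhibitor and BMP-4, then LDN193189, a BMP receptor inhibitor, and CHIR99021, a WNT pathway activator. Both also received a low share of growth factor-reduced Matrigel at the start of differentiation, so the GelNB-CH organoids had met basement membrane extract as well. The growth text attached to the Matrigel library repeats the GelNB-CH embedding and an oxidized dextran step, so the embedding of that library cannot be stated here.

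A basement membrane is a thin sheet under epithelia and around Schwann cells, muscle and vessels. Laminin trimers of 1 alpha, 1 beta and 1 gamma chain form a polymer on the cell surface, collagen IV trimers form a second network, and nidogen and perlecan link them. In many tissues the chains are made by different cells on either side of the sheet, and in the inner ear such sheets lie under the otic epithelium and around the glia of the cochleovestibular ganglion.

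Counts of unique molecular identifiers (UMIs) were summed over the cells of a class and divided by the total UMIs of that class, on the usual counts-per-million scale (CPM). After filtering, 18253 GelNB-CH and 9800 Matrigel cells remained, with medians of 8558 and 14001.5 UMIs per cell, and 63 kept barcodes occurred in both libraries. Clusters, made without the 31 genes, were named from marker lists as otic epithelium-like (6945 GelNB-CH and 2729 Matrigel cells), stratified epithelium-like (272 and 153), mesenchyme-like (4695 and 2513), cartilage-like (1362 and 418), Schwann or satellite glia-like (1269 and 2492), central nervous system progenitor-like (558 and 119) and neuron-like (1432 and 870). These are called otic, stratified, mesenchyme, cartilage, glia, CNS progenitor and neuron below. Unnamed clusters 14 (804 and 183 cells, led by histone genes with LUM, MATN1 and HAPLN1) and 11 (816 and 318 cells, led by RFX4, BCAN, CRYM and VIPR2, with 7 of 11 glia markers) were kept apart. Of 11 endothelial markers, 9 lay between 0.0921 and 1.15 CPM over all kept cells of either library. Cells of vessels, a main source of basement membrane in tissue, were thus near absent among these sorted cells. The exceptions were EGFL7, at 14.3 and 17.4 CPM, and ERG, at 84.7 and 75.5 CPM. ERG led mesenchyme cluster 9. Glia held 6.95% of GelNB-CH cells and 25.4% of Matrigel cells, a gap that enters every value given over all cells. Neither group has a replicate library, so no test was possible. Intervals are exact 95% intervals of counting error only, and each difference holds for these 2 libraries.

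Glia carried more of these genes at their highest level than any other class. Of the 31 genes, 29 reached 10 CPM in at least 1 class, taking the mean of both libraries. Glia was the highest class for 11 of them, or 37.9%, against 10.4% of all 12831 genes that reached the same level. These were LAMB1, LAMC1, COL4A1, COL4A2, NID1, HSPG2, AGRN, COL18A1, FREM2, EGFLAM and SPARC. Cartilage was highest for 5 genes (17.2%, against 10.2% of all genes): LAMA4, LAMB2, NID2, COL15A1 and SMOC2. CNS progenitors were highest for 4 (13.8%, against 13.1%): LAMA1, COL4A5, COL4A6 and SMOC1. The otic class was highest for 3 (10.3%, against 11.6%), namely LAMA5, FRAS1 and NPNT, and stratified cells for 2 (6.90%, against 13.2%), LAMA3 and LAMB3. Mesenchyme was highest only for FBLN1 (background 4.04%) and neurons for none (background 24.1%). Cluster 11 was highest for LAMA2 and FREM1 and cluster 14 for LAMC3. The highest class differed between the libraries for LAMA3, LAMB3, LAMA5, SMOC1, FREM1 and FREM2. In Matrigel alone LAMA3 was highest in cluster 14 and LAMB3 in otic cells. COL4A3 and COL4A4, the collagen IV chains of kidney and mature cochlea, stayed under 10 CPM in every class. The heat map of all 31 genes shows the glia columns as the brightest for COL4A1, COL4A2, LAMB1 and COL18A1.

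**Figure D1:**
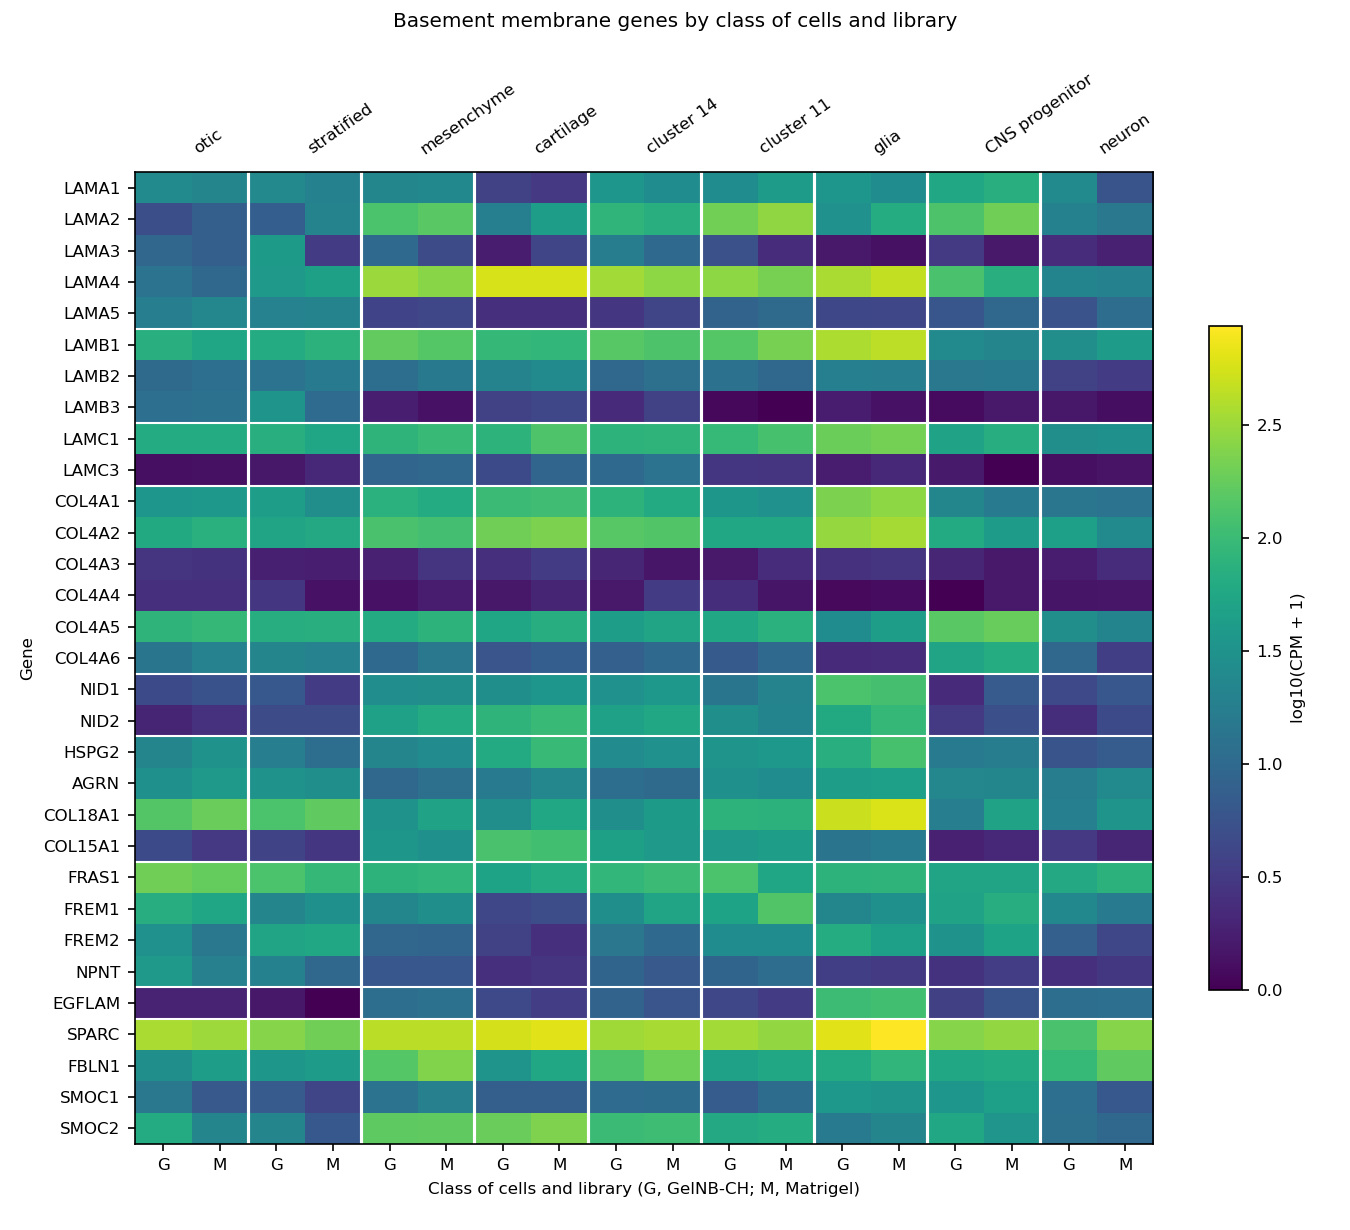
Level of each of the 31 genes as log10(CPM + 1), colour scale, in 9 classes or clusters of cells (columns, GelNB-CH left and Matrigel right in each pair). LAMA4 is brightest in cartilage (573 and 571 CPM), COL18A1 in glia (504 and 589 CPM), and NID1 and NID2 are dark in the otic columns.

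In all value lists that follow, the first number is the CPM in GelNB-CH and the second the CPM in Matrigel. Levels are compared between classes and libraries for 1 gene at a time.

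Among the laminin alpha chains, LAMA4 encodes the alpha chain of vessel, nerve and mesenchymal laminins. It read, in CPM, 573 and 571 in cartilage cells, 371 and 461 in glia, 339.9 and 272 in cluster 14, 316 and 261 in mesenchyme, 272 and 218 in cluster 11, 125 and 68.9 in CNS progenitors, 36.6 and 45.4 in stratified cells, 20.1 and 18.7 in neurons and 12.1 and 8.88 in otic cells. The mesenchymal, cartilage and glial classes were thus far above the otic class in both libraries. The otic level was 3.84% and 3.40% of that in mesenchyme, within the 0.959% to 3.86% and 0.862% to 3.68% of their mesenchyme level at which reference genes of mesenchyme, such as COL1A1, appeared in otic droplets. The median of these reference genes was 1.91% and 1.44%. Whether the otic LAMA4 UMIs were carried over or expressed by otic cells was not tested. Otic cluster 3, at 49.1 and 20.3 CPM, stood above that range. Its mesenchyme markers, 12 to 13 of 14 found, also summed higher, to 419 and 234 CPM against 86.5 and 55 CPM in otic cluster 1, and their part in the LAMA4 level was not tested. LAMA2, the alpha chain of merosin, the laminin of muscle and Schwann cell sheets, read, in CPM, 206 and 284 in cluster 11, 131 and 197 in CNS progenitors, 125 and 153 in mesenchyme, 81.7 and 68.3 in cluster 14, 29.8 and 64.5 in glia, 17.8 and 42.8 in cartilage cells, 18.4 and 14.1 in neurons, 6.56 and 19.4 in stratified cells and 4.09 and 6.77 in otic cells. Among the classes and unnamed clusters compared, cluster 11 and CNS progenitors were highest. Within mesenchyme, however, cluster 0 alone read 301 and 273 CPM. The otic class was lowest in both libraries, at 3.26% of mesenchyme in GelNB-CH, within the range of carried-over genes, and at 4.42% in Matrigel, above it.

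LAMA1 encodes the alpha chain of the laminin of early embryos, which is also the main laminin of Matrigel. It read, in CPM, 55.7 and 69.5 in CNS progenitors, 25.8 and 41.3 in cluster 11, 34.2 and 25.9 in cluster 14, 33.8 and 25.8 in glia, 24.2 and 20.5 in otic cells, 21.1 and 22.7 in mesenchyme, 23.2 and 18.6 in stratified cells, 24.5 and 4.83 in neurons and 2.72 and 2.08 in cartilage cells. CNS progenitors were highest in both libraries, and within neurons the gene sat mainly in the cycling cluster 22, at 82.8 and 17.7 CPM. LAMA5, the alpha chain of most mature epithelial sheets, read, in CPM, 17.2 and 21.7 in otic cells, 18.8 and 19.4 in stratified cells, 7.71 and 9.45 in cluster 11, 4.63 and 10.2 in neurons, 5.12 and 8.92 in CNS progenitors, 3.33 and 3.27 in glia, 2.9 and 3.27 in mesenchyme, 1.93 and 3.08 in cluster 14 and 1.49 and 1.49 in cartilage cells, so the 2 epithelial classes were highest and lay close to each other. LAMA3, the alpha chain of the laminin that anchors stratified epithelia, read, in CPM, 38.5 and 2.33 in stratified cells, 16.6 and 8.99 in cluster 14, 8.34 and 6.71 in otic cells, 9.13 and 3.85 in mesenchyme, 4.37 and 1.38 in cluster 11, 0.679 and 3.12 in cartilage cells, 2.13 and 0.594 in CNS progenitors, 1.36 and 0.852 in neurons and 0.606 and 0.357 in glia. Its stratified level rested on 141 and 6 UMIs.

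The make-up of the alpha chains separated the classes, and in glia and cartilage the LAMA4 share was close between the libraries. LAMA4 gave 84.6% of alpha chain UMIs in glia of GelNB-CH and 83.1% in glia of Matrigel, and 96.2% and 92% in cartilage. Mesenchyme had LAMA4 at 66.6% and 58.8% with LAMA2 at 26.4% and 34.5%. The otic class was the mixed one, with LAMA1 at 36.7% and 31.8%, LAMA5 at 26.0% and 33.6% and LAMA3 at 12.6% and 10.4%. Part of the otic rest was LAMA4, whose otic level lay within the range of carried-over genes. Stratified cells differed most between the libraries, with LAMA3 at 31.1% and 2.21%. These are shares of 3′ tags of RNA, not of protein.

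**Figure D2:**
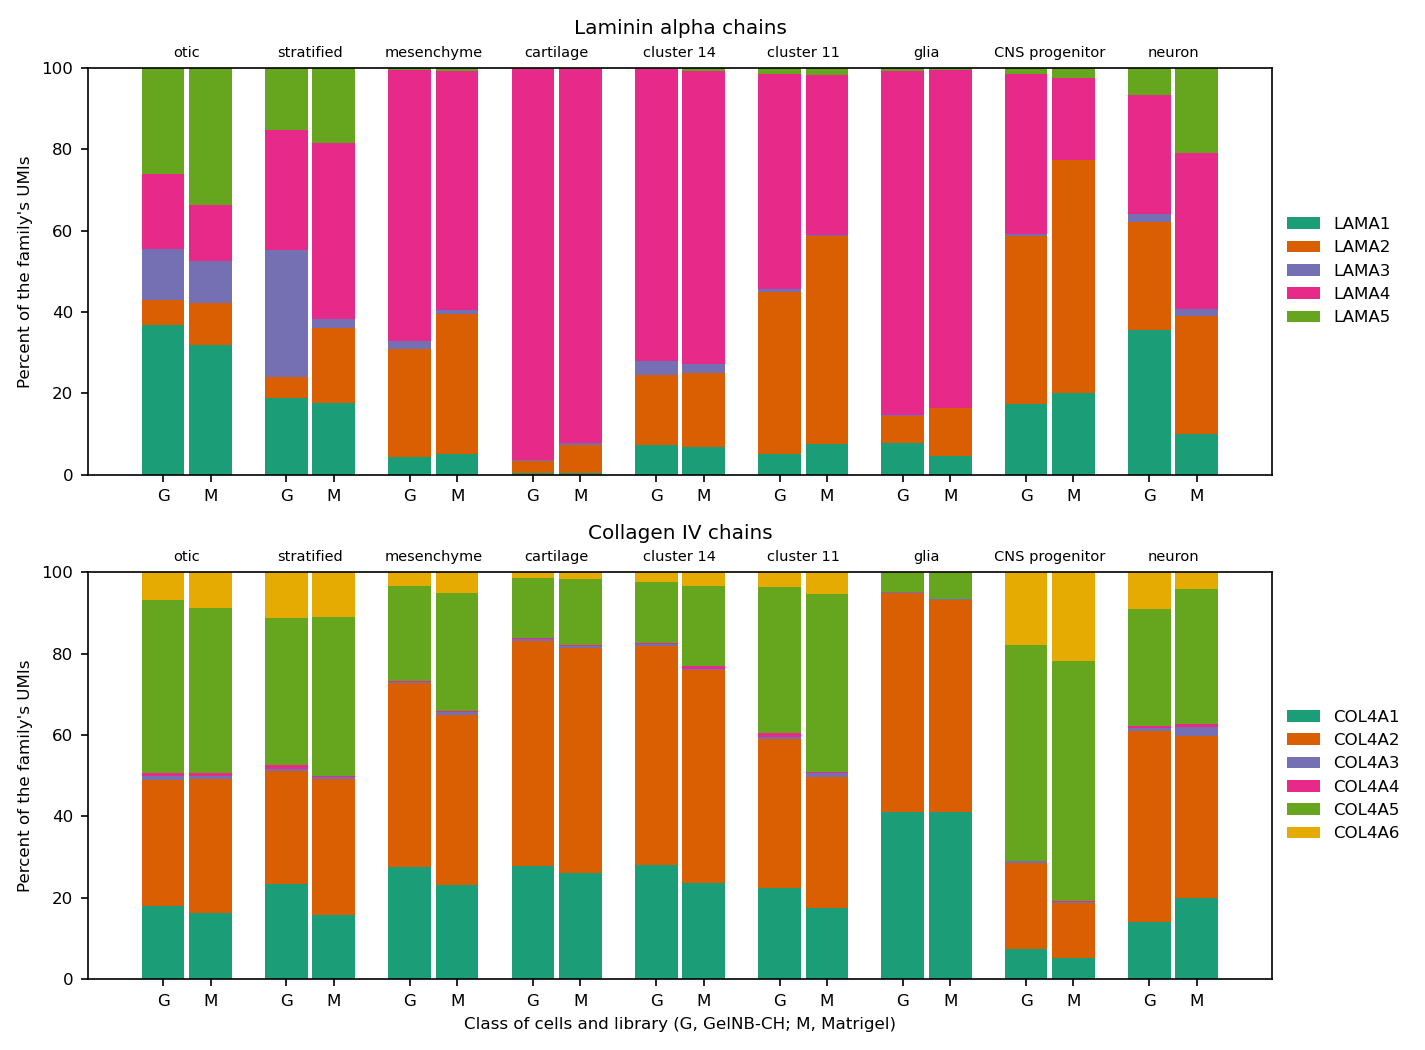
Percent of the UMIs of the laminin alpha chains (top) and of the collagen IV chains (bottom) that came from each gene, by class of cells and library (G, GelNB-CH; M, Matrigel). LAMA4 fills 96.2% and 92% of the cartilage bars, whereas otic bars divide over 5 chains, including LAMA4 at a level within the range of carried-over genes. COL4A5 and COL4A6 fill most of the CNS progenitor bars.

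LAMB1 and LAMC1, the beta and gamma chains shared by most laminins, were found in every class and were highest in glia. LAMB1 read, in CPM, 378 and 437 in glia, 146 and 215 in cluster 11, 169 and 144 in mesenchyme, 151 and 129 in cluster 14, 90.3 and 87.7 in cartilage cells, 62.8 and 76.8 in stratified cells, 67.8 and 54.3 in otic cells, 27.1 and 40.2 in neurons and 24.1 and 20.8 in CNS progenitors. LAMC1 read, in CPM, 189.8 and 208 in glia, 91.1 and 119 in cluster 11, 77.5 and 132 in cartilage cells, 80.8 and 97.2 in mesenchyme, 77.9 and 80.4 in cluster 14, 64 and 63.7 in otic cells, 70.2 and 52.7 in stratified cells, 48.2 and 66 in CNS progenitors and 27.6 and 28.7 in neurons. Across the 9 classes their log2 levels went together, with r = 0.913 in GelNB-CH and 0.766 in Matrigel, a description over 9 points that share 2 libraries. LAMB2, the beta chain of nerve and muscle synapse laminins, was low, with its highest values in cartilage at 19.7 and 24.1 CPM. LAMB3, the partner of LAMA3, read, in CPM, 32.5 and 9.7 in stratified cells, 10.8 and 11.5 in otic cells, 2.78 and 3.27 in cartilage cells, 1.26 and 2.83 in cluster 14, 0.75 and 0.385 in mesenchyme, 0.707 and 0.384 in glia, 0.559 and 0.284 in neurons, 0.213 and 0.594 in CNS progenitors and 0.145 and 0 in cluster 11, so no class beyond the 2 epithelial ones exceeded 3.27 CPM. Within the otic class, cluster 13 read LAMB3 at 33.2 and 42.7 CPM. LAMC3 was at 9 and 12.1 CPM in cluster 14, the highest of the 9 units compared, and at 19.0 and 15.9 CPM in mesenchyme cluster 0.

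Chains of 1 trimer were also counted within single cells, each thinned to 5000 UMIs. The chains of laminin 411 (LAMA4, LAMB1 and LAMC1) were found together in 32.8% (30.03% to 35.7%) of GelNB-CH glia and 39.6% (37.7% to 41.6%) of Matrigel glia. In the same order of libraries, the shares were 8.05% and 13.1% in cartilage and 10.0% and 9.05% in mesenchyme. They were 10.1% and 8.29% in cluster 14 and 9.5% and 8.58% in cluster 11. In the otic class, where LAMA4 was within the range of carried-over genes, the shares were 0.599% and 0.312%. The chains of laminin 211, with LAMA2, were together in 4.20% (3.08% to 5.58%) of GelNB-CH and 10.6% (9.36% to 11.9%) of Matrigel glia. In cluster 11 the shares were 6.86% and 9.57%, and in mesenchyme 5.02% and 5.19%. Glia were therefore not highest for this trimer in GelNB-CH. The chains of laminin 111, with LAMA1, reached 6.16% and 5.01% of glia and 0.757% and 0.624% of otic cells. Those of laminin 511, with LAMA5, were together in 0.646% and 1.01% of otic cells and 0.373% and 0.758% of glia. Median depths before thinning were 7086 and 13699 UMIs in glia and 9582 and 15424 in otic cells.

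Collagen IV is coded by 3 pairs of genes that lie head to head. COL4A1 and COL4A2, whose chains form the common trimer, start on opposite strands of chromosome 13, with 126 bases between their RefSeq starts. COL4A5 and COL4A6, whose chains form the trimer of some epithelia and smooth muscle, start 379 bases apart on the X chromosome. The stretch between each pair is shown because the levels of the 2 genes of a pair went together, with no link tested. Both are from RefSeq (GRCh38.p14), on the plus strand and 5′ to 3′. Capitals mark CCAAT and GGGCGG on either strand (ATTGG and CCGCCC). The first is chr13:110307158-110307283, the whole gap. The second is chrX:108439588-108439837, the 250 bases before the COL4A5 start.
COL4A1-COL4A2: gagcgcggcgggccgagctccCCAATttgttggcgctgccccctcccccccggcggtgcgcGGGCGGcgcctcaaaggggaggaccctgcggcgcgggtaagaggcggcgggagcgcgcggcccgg
COL4A6-COL4A5: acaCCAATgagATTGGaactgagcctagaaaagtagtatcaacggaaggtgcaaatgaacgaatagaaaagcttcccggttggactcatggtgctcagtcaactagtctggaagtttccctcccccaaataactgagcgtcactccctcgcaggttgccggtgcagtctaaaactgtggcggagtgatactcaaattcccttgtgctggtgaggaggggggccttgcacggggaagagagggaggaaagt
The first holds 1 CCAAT and 1 GGGCGG, which occur in 21.9% and 34.6% of all promoters over the same 126 bases before the start. The second holds 2 CCAAT and no GGGCGG, against 33% and 42.3% of all promoters over 250 bases. No TATAAA was found in either, a motif of 6.23% and 11.1% of promoters. The 126 and 250 bases shown are 80.2% and 51.2% G and C. Such matches describe the letters only. Of the 31 genes, 28 had a promoter in the table, and LAMA1, LAMC3 and AGRN had none. The genes themselves lie, in the longer GENCODE v29 models on GRCh38, at chr13:110148963-110307233 on the minus strand (COL4A1) and chr13:110305812-110513209 on the plus strand (COL4A2), which overlap.

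The COL4A1 and COL4A2 pair was highest in glia and the COL4A5 and COL4A6 pair in CNS progenitors. COL4A1 read, in CPM, 227 and 277 in glia, 101 and 107 in cartilage cells, 77.7 and 61.4 in cluster 14, 75.2 and 62.7 in mesenchyme, 43.4 and 27.1 in stratified cells, 34 and 35.7 in otic cells, 34.5 and 29.5 in cluster 11, 21.1 and 15.5 in CNS progenitors and 13.1 and 12.1 in neurons. COL4A2 read, in CPM, 296 and 349.9 in glia, 202 and 225 in cartilage cells, 149.7 and 136 in cluster 14, 123 and 114 in mesenchyme, 59.3 and 71.8 in otic cells, 57 and 54.6 in cluster 11, 51.4 and 58.2 in stratified cells, 61.4 and 41 in CNS progenitors and 44.2 and 24.3 in neurons. Across the 9 classes the log2 levels of this pair had r = 0.931 and 0.985. COL4A5 read, in CPM, 154 and 177 in CNS progenitors, 81 and 88.9 in otic cells, 63.8 and 78.9 in mesenchyme, 66.9 and 67.9 in stratified cells, 55.4 and 74 in cluster 11, 54.2 and 66.6 in cartilage cells, 41.8 and 50.6 in cluster 14, 25.6 and 42.4 in glia and 27.1 and 20.2 in neurons. COL4A6 read, in CPM, 51.6 and 65.4 in CNS progenitors, 20.8 and 19 in stratified cells, 12.8 and 19 in otic cells, 9.18 and 14 in mesenchyme, 6.87 and 8.99 in cluster 14, 5.82 and 9.22 in cluster 11, 5.03 and 6.54 in cartilage cells, 8.46 and 2.48 in neurons and 1.21 and 1.34 in glia. For this pair r was 0.839 and 0.875, whereas COL4A2 against COL4A5, from different pairs, had -0.393 and -0.017. NID1 and NID2, on chromosomes 1 and 14, had 0.896 and 0.928, so high values were not particular to head-to-head pairs. All are descriptions over 9 points. In glia COL4A1 and COL4A2 gave 41.2% and 53.7% of collagen IV UMIs in GelNB-CH, and 41.1% and 52.0% in Matrigel. In CNS progenitors COL4A5 gave 53.2% and 59.0% and COL4A6 17.9% and 21.8%. The otic class lay between, with COL4A5 at 42.5% and 40.7% and COL4A2 at 31.1% and 32.8%.

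Nidogens bind laminin to collagen IV, and both were highest outside the epithelia. NID1 read, in CPM, 128 and 116 in glia, 29.9 and 36 in cluster 14, 28.3 and 33.8 in cartilage cells, 26.2 and 27.6 in mesenchyme, 12.9 and 19.8 in cluster 11, 3.43 and 5.32 in neurons, 3.57 and 4.52 in otic cells, 5.46 and 2.33 in stratified cells and 1.28 and 5.94 in CNS progenitors. NID2 read, in CPM, 80.2 and 94.4 in cartilage cells, 59.8 and 89.3 in glia, 47.7 and 62.8 in mesenchyme, 46.9 and 57 in cluster 14, 28.4 and 20.1 in cluster 11, 3.82 and 3.88 in stratified cells, 2.13 and 4.16 in CNS progenitors, 1.44 and 3.55 in neurons and 1.04 and 1.62 in otic cells. NID1 in glia was 3.71-fold above the next class. For NID2 the otic level was 2.18% and 2.57% of that in mesenchyme, within the range of carried-over genes, whereas for NID1 it was 13.6% and 16.3%, above that range. In cells thinned to 5000 UMIs, NID2 was found in 0.457% and 0.702% of otic cells against 19.2% and 22.9% of mesenchyme cells. NID2 and LAMA4 were the 2 of the 31 genes that lay within this range in otic cells of both libraries. The range was set against mesenchyme only, and carry-over from other classes, such as glia or cartilage, was not tested. NID1 and EGFLAM were highest in glia and COL15A1 in cartilage. A level above the mesenchyme range therefore does not decide whether their otic UMIs were carried over.

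The heparan sulfate proteoglycans HSPG2, AGRN and COL18A1 were all highest in glia, and the next class differed between them. HSPG2, which encodes perlecan, read, in CPM, 67.7 and 121 in glia, 61.5 and 96.3 in cartilage cells, 32.3 and 35.5 in cluster 11, 25.4 and 29.3 in cluster 14, 20.9 and 31.7 in otic cells, 20.8 and 24.8 in mesenchyme, 14.9 and 16 in CNS progenitors, 17.2 and 10.5 in stratified cells and 4.79 and 6.1 in neurons. AGRN, which encodes agrin, an organiser of synapses and epithelial sheets, read, in CPM, 42.4 and 45.1 in glia, 29.1 and 37.2 in otic cells, 30.9 and 28.3 in stratified cells, 28.7 and 25.6 in cluster 11, 22 and 21.4 in CNS progenitors, 16 and 24.5 in neurons, 15.6 and 21.7 in cartilage cells, 10.6 and 9.5 in cluster 14 and 8.73 and 11.2 in mesenchyme. COL18A1, the collagen from which endostatin is cut, read, in CPM, 504 and 589 in glia, 143 and 184 in otic cells, 126 and 164 in stratified cells, 78 and 75.6 in cluster 11, 27.3 and 56.5 in cartilage cells, 31.2 and 48.3 in mesenchyme, 28.1 and 39.3 in cluster 14, 17.1 and 48.1 in CNS progenitors and 17.6 and 32.2 in neurons. Its glia level was 3.34-fold above the next class, the otic one. COL15A1, its close relative, was instead highest in cartilage (123 and 110 CPM) and read 3.62 and 2.09 CPM in the otic class. EGFLAM, which encodes pikachurin, a ligand of dystroglycan, was the most restricted gene, with (in CPM) 103 and 111 in glia, 10.5 and 11.8 in mesenchyme, 10.6 and 10.9 in neurons, 7.64 and 4.88 in cluster 14, 2.56 and 4.75 in CNS progenitors, 3.4 and 2.38 in cartilage cells, 3.2 and 2.31 in cluster 11, 0.967 and 0.967 in otic cells and 0.546 and 0 in stratified cells. Glia stood 9.60-fold above the next class, and cluster 7, at 124 and 146 CPM, exceeded cluster 4, at 66.7 and 89.8 CPM.

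The Fraser complex anchors embryonic epithelia to the underlying tissue. FRAS1 read, in CPM, 199 and 175 in otic cells, 125 and 90.4 in stratified cells, 88.2 and 101 in cluster 14, 125 and 53.7 in cluster 11, 78.1 and 84.4 in mesenchyme, 78.2 and 81.4 in glia, 58.7 and 76.2 in neurons, 50.1 and 63.9 in cartilage cells and 50.3 and 51.1 in CNS progenitors. FREM1 read, in CPM, 49.3 and 136 in cluster 11, 66.8 and 51.8 in otic cells, 48.2 and 66.6 in CNS progenitors, 27.9 and 51.6 in cluster 14, 21.5 and 28.9 in glia, 20.8 and 28.7 in stratified cells, 21.3 and 27.9 in mesenchyme, 22.5 and 15.5 in neurons and 3.26 and 4.01 in cartilage cells. FREM2 read, in CPM, 64.7 and 44.6 in glia, 50.5 and 55.8 in stratified cells, 31.6 and 49.9 in CNS progenitors, 25.6 and 25.6 in cluster 11, 29.6 and 14.1 in otic cells, 13.6 and 8.99 in cluster 14, 8.38 and 8.03 in mesenchyme, 7.03 and 3.26 in neurons and 2.72 and 1.49 in cartilage cells. FRAS1 was highest in otic cells of both libraries, where cluster 1 reached 277 and 317 CPM, whereas the highest class of FREM1 and FREM2 differed between the libraries. NPNT, which encodes nephronectin, an integrin ligand held by this complex, read, in CPM, 38.1 and 17.9 in otic cells, 18.6 and 8.53 in stratified cells, 7.86 and 10.4 in cluster 11, 7.74 and 5.65 in cluster 14, 5.33 and 5.28 in mesenchyme, 2.52 and 2.19 in glia, 1.71 and 2.38 in CNS progenitors, 1.52 and 1.99 in neurons and 1.56 and 1.78 in cartilage cells, and the otic class was highest in both.

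The matricellular genes differed from each other in their highest class. SPARC, which encodes a collagen IV-binding protein, read, in CPM, 635 and 867 in glia, 560.0 and 638 in cartilage cells, 432 and 433 in mesenchyme, 372 and 318 in otic cells, 333 and 354 in cluster 14, 336 and 289.5 in cluster 11, 252 and 287 in CNS progenitors, 253 and 199.7 in stratified cells and 125 and 256 in neurons. FBLN1, which encodes fibulin 1, read, in CPM, 143 and 238 in mesenchyme, 135 and 195 in cluster 14, 92.8 and 167 in neurons, 61.1 and 84.7 in glia, 56.5 and 61.2 in CNS progenitors, 47.6 and 54.9 in cluster 11, 31.9 and 55.9 in cartilage cells, 34.7 and 40.3 in stratified cells and 27.9 and 43.9 in otic cells. SMOC1 and SMOC2 encode SPARC-related proteins of basement membranes. SMOC1 read, in CPM, 34.1 and 44.6 in CNS progenitors, 36 and 32.6 in glia, 12.3 and 18 in mesenchyme, 14.2 and 5.64 in otic cells, 9.77 and 10.0 in cluster 14, 6.26 and 9.91 in cluster 11, 10.7 and 5.47 in neurons, 6.79 and 6.84 in cartilage cells and 6.01 and 3.1 in stratified cells. SMOC2 read, in CPM, 185 and 236 in cartilage cells, 160.4 and 166 in mesenchyme, 99.2 and 106 in cluster 14, 58.1 and 64.8 in cluster 11, 56.5 and 33.3 in CNS progenitors, 63.5 and 20.8 in otic cells, 15.7 and 21 in glia, 20.5 and 5.43 in stratified cells and 11 and 8.94 in neurons.

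The share of a gene's UMIs that came from each class depends on level and on cell number among the sorted cells. In Matrigel, glia held 64.9% of COL4A1, 59.5% of LAMB1, 62.4% of COL18A1, 70.4% of NID1 and 85.6% of EGFLAM UMIs, against 23.2% of all UMIs. In GelNB-CH the glia shares of the same genes were 20.5%, 18.2%, 25.1%, 35.7% and 55.9%, against 5.36% of all UMIs. Glia thus held more than their share of all UMIs in both libraries for each of the 5 genes. Otic cells held 85.5% and 68.2% of NPNT, 77.4% and 68.3% of LAMA5 and 79.9% and 86.5% of LAMB3, against 43.7% and 32.3% of all UMIs. Mesenchyme held 54.6% and 52.3% of LAMA2 and 60.8% and 64.0% of LAMC3, against 21.7% and 23.2%.

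**Figure D3:**
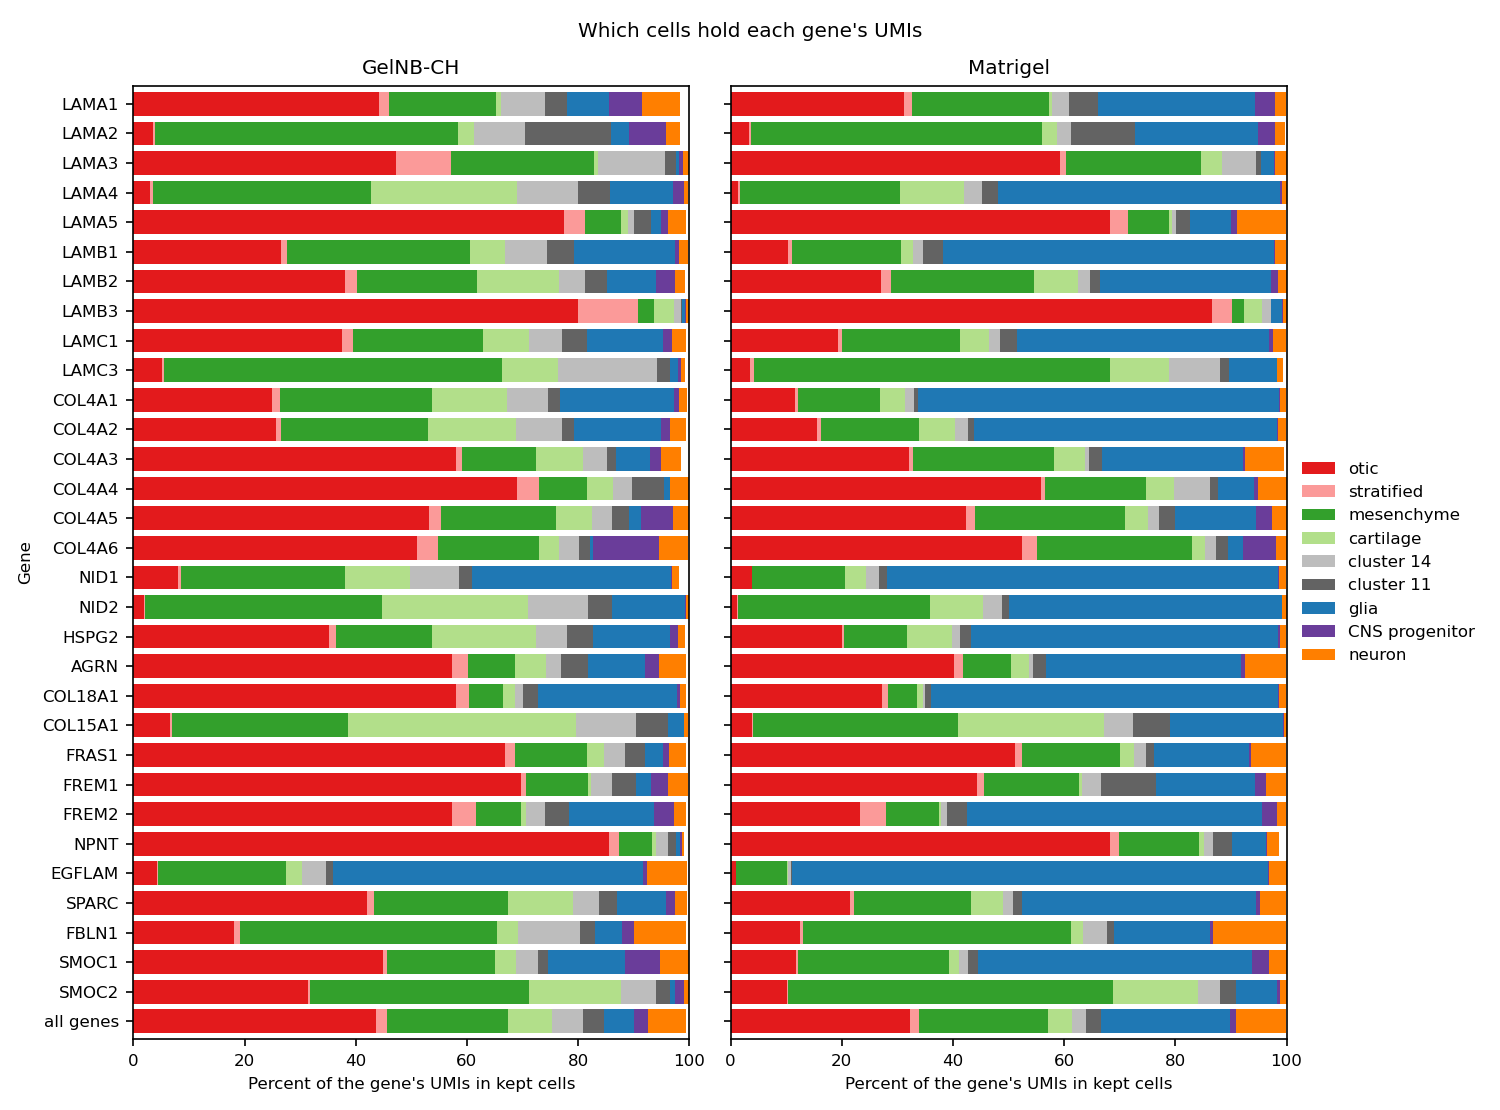
Percent of each gene's UMIs in kept cells that came from each class (colours), in GelNB-CH (left) and Matrigel (right); the lowest bar is all genes together, and the white rest is melanocyte-like and muscle-like cells. The glia part of the COL4A1 bar is 20.5% on the left and 64.9% on the right.

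Over all kept cells, the genes were lower in GelNB-CH than in Matrigel. The median log2 ratio (GelNB-CH over Matrigel, each CPM plus 1) of the 26 genes with at least 10 CPM in either library was -0.29, and 19 of the 26 were higher in Matrigel. Over all 10568 genes of that level the median was -0.03, with 55.7% higher in Matrigel, against 73.1% of the 26. NPNT was higher in GelNB-CH by at least 2-fold (19.5 against 8.49 CPM), where 0.71% of all genes were. COL18A1 (108 against 219 CPM) and EGFLAM (9.84 against 30.2 CPM) were at least 2-fold higher in Matrigel, where 1.39% of all genes were. This difference moved with the make-up of the cells: with the classes given the same weights in both libraries the median was -0.09 and no gene reached 2-fold in either direction. EGFLAM shows it most plainly, since its glia levels of 103 and 111 CPM differed by 1.09-fold (95% interval 1.01 to 1.16) and its level over all cells by 3.07-fold (95% interval 2.91 to 3.24).

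Within glia the genes were also lower in GelNB-CH, by less. The median of 23 genes was -0.24, with 18 (78.3%) higher in Matrigel. Over all genes tested in glia it was -0.03, with 54.5% higher in Matrigel. LAMA2 alone was at least 2-fold higher in Matrigel, by 2.16-fold (95% interval 1.92 to 2.45), where 1.16% of genes were. It was higher in Matrigel in each of the 3 glia clusters, but past 2-fold only in cluster 7, at 10.9 and 43.6 CPM. Cluster 4 read 53.7 and 85.3 CPM and cluster 21 read 23.5 and 30.9 CPM. In cluster 21 the interval of the GelNB-CH over Matrigel ratio, 0.492 to 1.14, included equality. The 2.16-fold of the class is not weighted for how the clusters were filled. None of the 23 reached 2-fold in GelNB-CH, where 0.727% of genes did. HSPG2 differed by 1.79-fold (95% interval 1.65 to 1.95) and SPARC by 1.37-fold (95% interval 1.33 to 1.4), both higher in Matrigel and so in all 3 clusters. FREM2 went the other way, higher in GelNB-CH by 1.45-fold (95% interval 1.32 to 1.59). The Schwann or satellite glia markers, which named the class and hold 11 genes, summed to 4613 and 6049.8 CPM in glia, and the 14 mesenchyme markers to 1334 and 1870 CPM. Their part in the difference was not tested.

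In mesenchyme the median of 23 genes was -0.25, with 18 (78.3%) higher in Matrigel. Over all genes tested there it was -0.04, with 57.9% higher in Matrigel. None of the 23 reached 2-fold in either direction (background 0.458% in GelNB-CH and 0.53% in Matrigel). In cells of 8000 to 16000 UMIs alone the median of the basement membrane genes was 0.06, whereas with each cell thinned to 5000 UMIs it was -0.21. COL4A1 and COL4A2 were higher in GelNB-CH in all 5 mesenchyme clusters and lower in all 3 glia clusters. For COL4A1 the intervals of the ratio included equality in mesenchyme clusters 6 and 18. For COL4A2 they did so in mesenchyme clusters 6 and 8 and in glia cluster 21. FBLN1 was higher in Matrigel by 1.66-fold (95% interval 1.61 to 1.72) in the class, not weighted for how the clusters were filled. It was higher in Matrigel in all 5 clusters, by most in cluster 0 at 194 and 363 CPM. In clusters 6 and 8 the intervals of the GelNB-CH over Matrigel ratio, 0.879 to 1.04 and 0.839 to 1.02, included equality. FBLN1 was in fact higher in Matrigel in 9 of the 9 classes, or in 8 of 9 after TMM scaling, an alternative set of library factors. COL18A1 was higher in Matrigel in 8 of the 9 under both scalings. The classes share the same 2 libraries, so these counts are not independent.

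In cartilage the median of 18 genes was -0.29, with 15 (83.3%) higher in Matrigel. Over all genes tested there it was -0.03, with 53.6% higher in Matrigel. LAMA2, by 2.41-fold (95% interval 2.03 to 2.86), and COL18A1, by 2.07-fold (95% interval 1.79 to 2.39), were at least 2-fold higher in Matrigel, where 1.77% of genes were. None reached 2-fold in GelNB-CH, where 0.776% did. LAMA4, which was highest in this class, was level at 573 and 571 CPM.

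**Figure D4:**
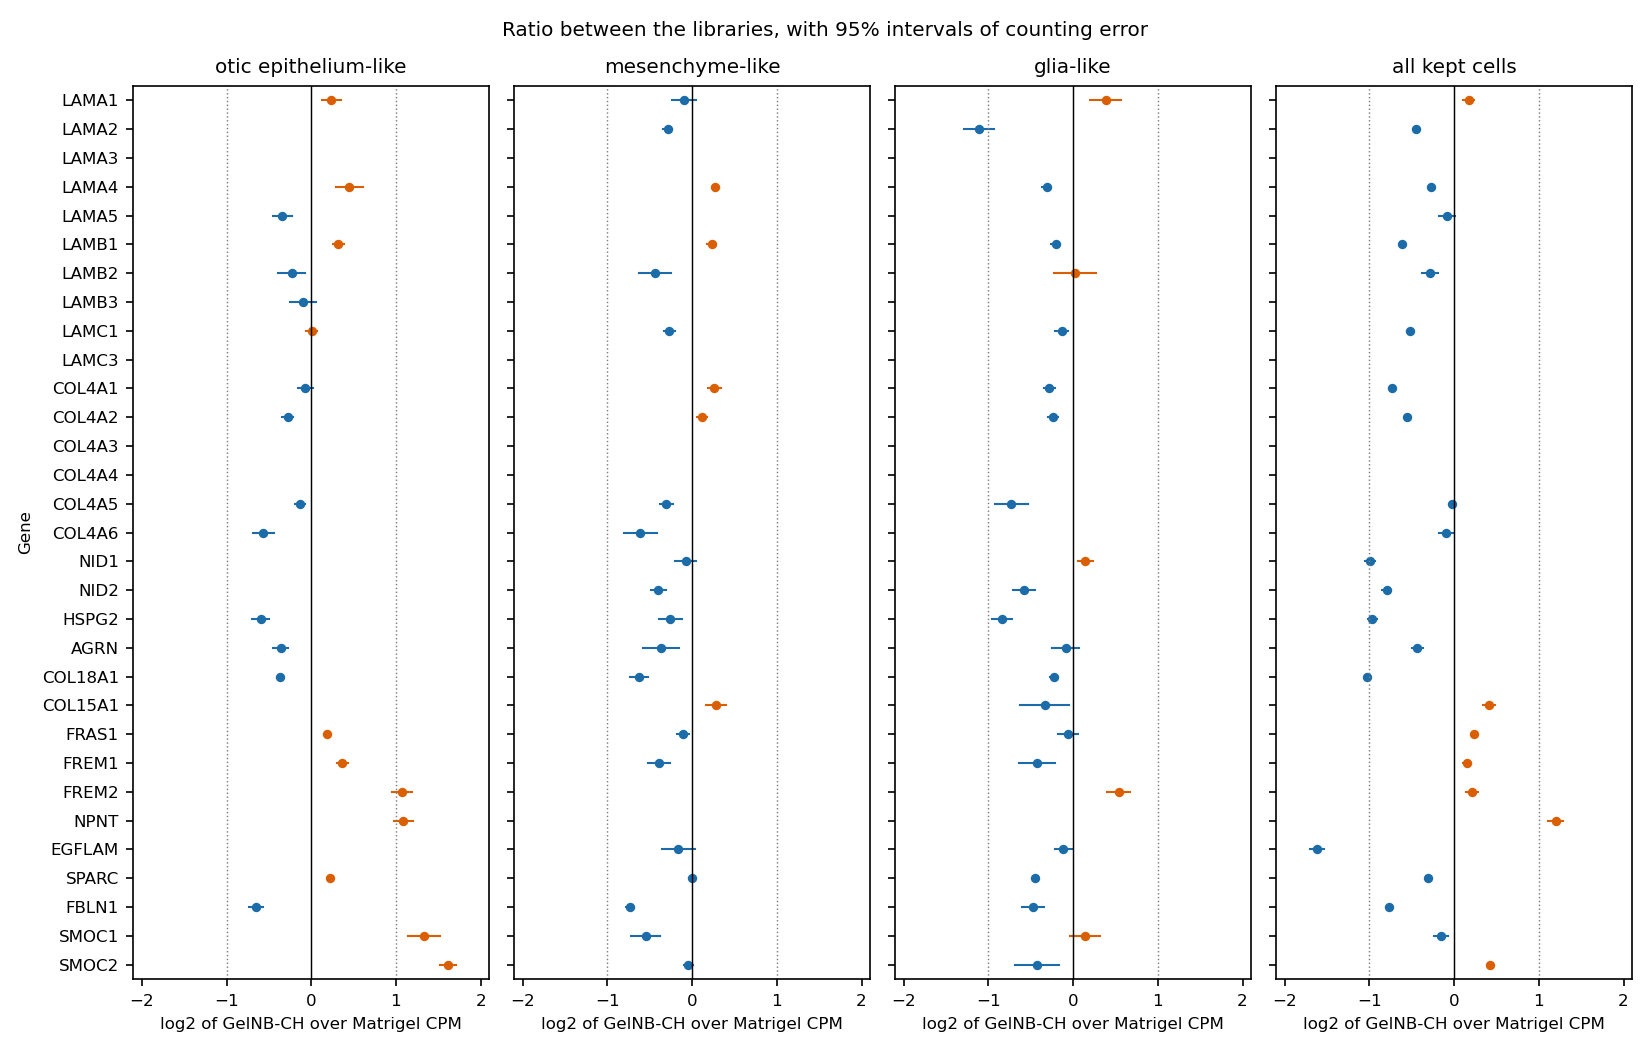
log2 of the ratio of CPM, GelNB-CH over Matrigel, for genes with at least 10 CPM in either library, with exact 95% intervals of counting error (bars), in otic, mesenchyme and glia cells and in all kept cells; dotted lines mark 2-fold, orange is higher in GelNB-CH and blue higher in Matrigel. The otic panel spreads to both sides, with SMOC2, SMOC1, NPNT and FREM2 past 2-fold. In mesenchyme and in glia 18 of 23 genes lie left of 0, where 57.9% and 54.5% of all genes tested were higher in Matrigel.

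The otic class had no common direction, with 11 genes higher in each library and a median of -0.03, equal to that of all genes. Of all genes tested there, 55.7% were higher in Matrigel. Single genes moved apart. In GelNB-CH 4 of 22 genes (SMOC2, SMOC1, NPNT and FREM2) were higher by at least 2-fold, as were 1% of all genes. In Matrigel none was, against 0.802% of all genes. SMOC2 read 63.5 and 20.8 CPM, a difference of 3.06-fold (95% interval 2.86 to 3.27). It was higher in GelNB-CH in all 7 otic clusters, from 132 and 60.2 CPM in cluster 1 and 93.5 and 22.3 CPM in the cycling cluster 16 to 11.8 and 9.89 CPM in cluster 13. Mesenchyme, which carried SMOC2 too, had its markers at 86.5 and 55 CPM in cluster 1, against 6205 and 7651 CPM in mesenchyme itself, and their part in the SMOC2 level was not tested. NPNT, at 38.1 and 17.9 CPM, differed by 2.13-fold (95% interval 1.97 to 2.29) and was also higher in all 7, though cluster 13 was level at 24.7 and 24.4 CPM.

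The otic clusters were not equally filled: cluster 1, which was high in SMOC2, NPNT and FREM2, held 1978 of 6945 otic cells in GelNB-CH and 241 of 2729 in Matrigel. With the clusters weighted alike, SMOC2 stayed 2.16-fold higher in GelNB-CH. The other ratios were then below 2: 1.61 for NPNT, 1.5 for SMOC1 and 1.35 for FREM2. SMOC1 was apart in clusters 3 (16.1 and 4.27 CPM), 16 (22.9 and 7.02 CPM) and 20 (12.5 and 4.74 CPM) and level in cluster 1 (25 and 25.1 CPM). FREM2 was apart in the same clusters, 3 (28.4 and 9.53 CPM), 16 (40.1 and 22.3 CPM) and 20 (49.3 and 25.1 CPM), and was higher in Matrigel in cluster 13 (4.52 and 7.71 CPM).

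Another set of otic genes was lower in GelNB-CH in cluster after cluster. LAMA5, AGRN, COL18A1 and FBLN1 were higher in Matrigel in all 7 otic clusters, also after TMM scaling. With the clusters weighted alike the ratios were 1.35, 1.32, 1.25 and 1.64. FBLN1 was farthest apart in clusters 2 (18.8 and 40.5 CPM) and 10 (20.2 and 43.0 CPM). COL4A2 and HSPG2 were higher in Matrigel in 7 of 7, but in 6 and 5 of 7 after TMM scaling. COL4A6 was higher in Matrigel in the 5 clusters where it reached 10 CPM. LAMC1 was level in the class at 64.0 and 63.7 CPM, and COL4A5 at 81.0 and 88.9 CPM. The 19 otic markers summed to 6520 and 5585 CPM in these cells. Their part in these differences was not tested.

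**Figure D5:**
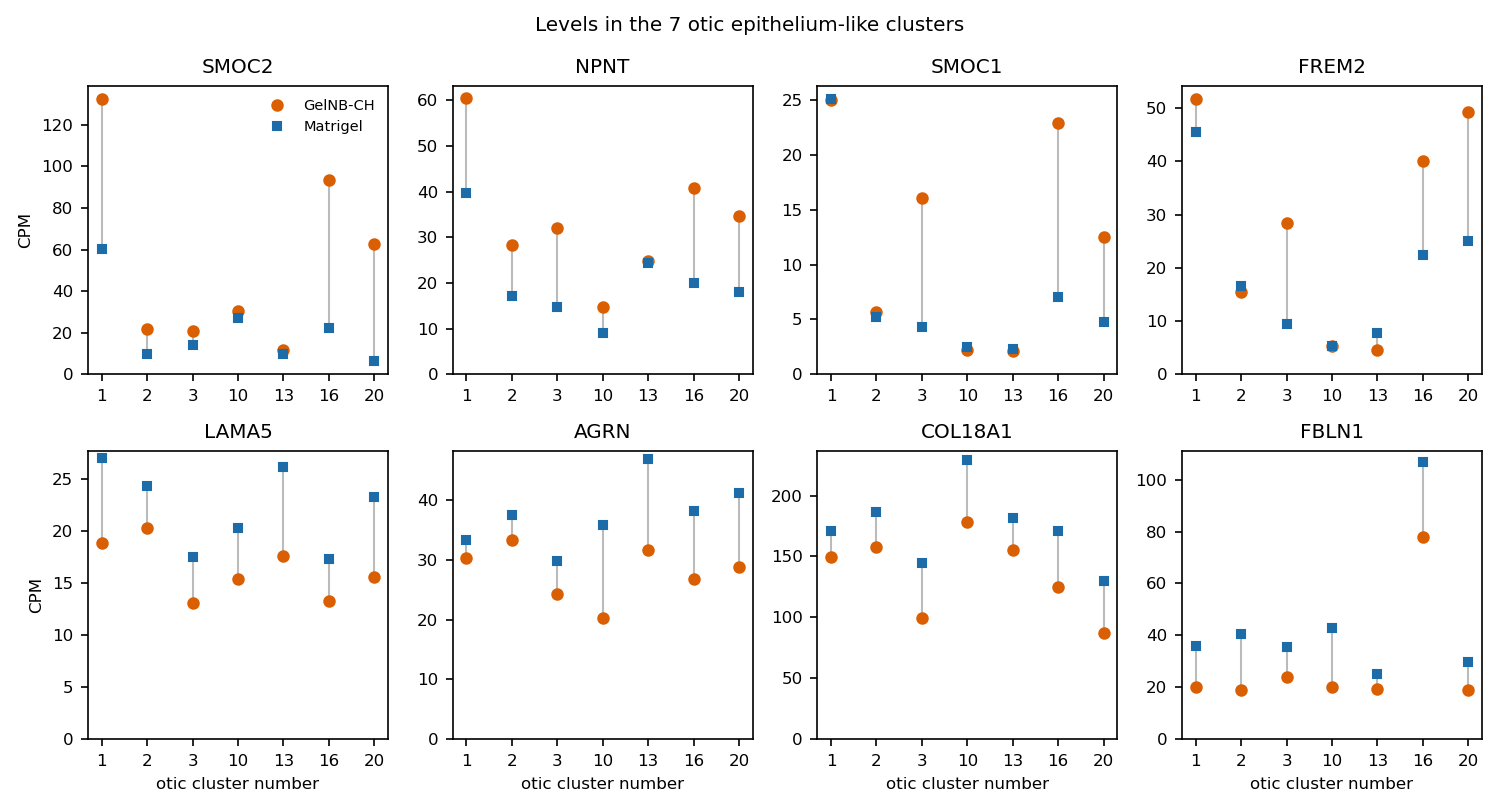
CPM of 8 genes in each of the 7 otic clusters (horizontal axis, cluster number), GelNB-CH as circles and Matrigel as squares, joined within a cluster. SMOC2 and NPNT circles lie above the squares in all 7 clusters, and LAMA5, AGRN, COL18A1 and FBLN1 circles below them in all 7.

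The stratified class was small. LAMA3, by 16.6-fold (95% interval 7.42 to 45.9), LAMB3, by 3.35-fold (95% interval 2.16 to 5.39), NPNT and SMOC2 were higher in GelNB-CH by at least 2-fold, 4 of 23 genes where 3.49% of all genes were. LAMA2 was in Matrigel, by 2.96-fold (95% interval 1.78 to 5.03), where 2.69% were. The 14 stratified markers that named the class summed to 2682 and 975 CPM, so the LAMA3 and LAMB3 difference moved with the markers of the class itself. Whether the marker difference accounts for it was not tested.

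The remaining classes differed for few genes. In cluster 11, FRAS1 was higher in GelNB-CH by 2.34-fold (95% interval 2.02 to 2.71) (background 0.944%) and FREM1 higher in Matrigel by 2.76-fold (95% interval 2.41 to 3.17) (background 2.13%). The transcripts of 2 Fraser complex genes were thus apart in opposite directions. In CNS progenitors COL18A1 was higher in Matrigel by 2.82-fold (95% interval 2.05 to 3.89), where 4.34% of genes reached 2-fold, and none reached it in GelNB-CH, where 1.49% did. In neurons LAMA1 was higher in GelNB-CH by 5.08-fold (95% interval 3.89 to 6.7) (background 4.45%), and LAMA5 and SPARC were higher in Matrigel by 2.21-fold (95% interval 1.62 to 3.05) and 2.05-fold (95% interval 1.93 to 2.18) (background 2.82%). Neuron clusters 12 and 15 held 361 and 840 GelNB-CH cells but 653 and 127 Matrigel cells. SPARC was higher in Matrigel in both, at 214 and 273 CPM and at 38.0 and 71.3 CPM.

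Partners of these proteins came from lists of 42 genes in 4 groups: other basement membrane components, enzymes that fold, export and crosslink collagen IV, receptors, and heparan sulfate enzymes. No gene of the 4 groups was at least 2-fold apart in otic, mesenchyme or cartilage cells or over all kept cells. In otic cells 4 of 14 other components, 9 of 11 collagen enzymes, 10 of 12 receptors and 5 of 5 heparan sulfate genes reached 10 CPM. The farthest apart there were higher in Matrigel for P4HA1 and P4HA2, prolyl hydroxylase subunits that modify collagen, at 139 and 257 CPM and at 17.4 and 30.1 CPM. On the other side, higher in GelNB-CH, NTN1 (netrin 1) read 34.8 and 18.5 CPM. SPARCL1, a relative of SPARC, read 44.3 and 24.5 CPM, and SULF1, a heparan sulfate sulfatase, 81.2 and 48.7 CPM. The receptors of the otic class lay closer, with ITGB1 at 332 and 338 CPM, DAG1 (dystroglycan) at 39.7 and 36.7 CPM and ITGA6 at 99.8 and 122 CPM. In glia MATN2, a matrilin of nerve, was 17.4 and 38.7 CPM, the 1 gene of the groups that reached 2-fold, and it was higher in Matrigel.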

How the data were processed

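The libraries of sorted cells, 1 per group, were made with the 10x Genomics 3′ assay and processed with Cell Ranger, whose version is 4.0.0 per the labels but 7.1.0 per the file headers. The submitters' processing notes name STAR and GRCh38 (hg38). The values deposited by the authors are raw UMI counts per gene and called cell, not normalised, per the file headers. No source used here states whether intronic or antisense reads were counted, and 18 of the 31 genes overlap another listed gene on the opposite strand, so such reads cannot be told apart. The genes and lists were chosen with earlier results of these data known.

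Cells with at least 1000 genes and at most 15% mitochondrial UMIs were kept. Scrublet (scanpy 1.11.5, expected rate 0.8% per 1000 barcodes) called doublets, 14.2% of the 21743 barcodes of GelNB-CH and 6.55% of the 10912 of Matrigel, and these were left out. The rest were clustered jointly (2000 variable genes without the 31, 30 components, 15 neighbours, Leiden resolution 1.0), giving 25 clusters. A name needed at least 3 markers, found in at least 10% of cells and 2-fold above the median cluster, and a share of 0.3 of its list. Hair cell-like cells had at least 8 of 16 markers detected. Library totals were 247006223 and 178672097 UMIs.

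Counts were summed per class and library. Classes of at least 50 cells per library were compared. Ratios have exact conditional binomial intervals and shares Clopper-Pearson intervals, which cover counting error only. Genes with at least 10 CPM in either library entered ratios, and log2 ratios used a pseudocount of 1 CPM. A ratio of at least 2 describes the libraries and is not a test. The interval code was tested on simulated counts. Named genes were the highest chain of each family, the nidogens, proteoglycans and Fraser genes, all genes with a ratio of at least 2 in a class, and up to 3 partners per group. The other chains, the genes given by cluster and the examples of receptors were added after their values were seen. Alternatives changed the cell filter, doublets, clustering, naming, depth, scaling (edgeR 4.0.16, TMM), minimum, pseudocount and weighting. Software was R 4.3.3 and Python 3.11.15 with igraph 0.11.9, scikit-learn 1.9.0, pandas 2.3.3, scipy 1.17.1 and numpy 2.4.6.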

Additional observations from a re-analysis of the deposited data

Results flagged for a closer look

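For 3 genes the ratio between the libraries pointed in opposite directions in different classes, by at least 1.5-fold each way and with counting intervals that excluded equality. With 1 library per group these differences between classes were not tested. LAMA1 had a log2 ratio (GelNB-CH over Matrigel) of 2.13 in neurons and -0.66 in cluster 11, 2.79 apart. FREM2 had 1.02 in otic cells and -0.64 in CNS progenitors, 1.67 apart. HSPG2 had 0.67 in stratified cells, from 63 and 27 UMIs, and -0.83 in glia, 1.5 apart.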

How the results depend on the processing

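No paired analysis was possible because each group has 1 library. Glia as the highest class kept to 8 to 14 genes over 10 alternatives. Mesenchyme or cartilage was highest for 6 genes, but for 2 at Leiden resolution 2.0 and 3 with the libraries clustered separately. The otic class was highest for 3, but for 1 at resolution 2.0 and 0 with cells put in their highest-scoring marker list. Leaving out clusters 11 and 14, chosen after seeing the data, gave 6 genes for mesenchyme or cartilage, 4 for otic cells and 11 for glia. The median over all cells (-0.29) was -0.38 in thinned cells, -0.22 with TMM factors, -0.22 at a minimum of 1 CPM, -0.51 at 50 CPM and -0.09 with classes weighted alike. Genes at least 2-fold higher in GelNB-CH (1) were 2 at a minimum of 1 CPM, and 0 at 50 CPM and with classes weighted alike. Those in Matrigel (2) were 1 with TMM, 1 at 50 CPM and 0 with classes weighted alike. The otic median (-0.03, with the median lower and upper counting bounds of its genes at -0.11 and 0.06) changed sign to 0.13 with doublets kept, 0.03 with the 31 genes among the variable genes, 0.04 thinned, 0.07 in cells of 8000 to 16000 UMIs, 0.06 with TMM, 0.18 at 50 CPM and 0.0 with clusters weighted alike, so it has no direction. The mesenchyme median (-0.25) was 0.06 in cells of 8000 to 16000 UMIs, -0.08 at 50 CPM and -0.11 with clusters weighted alike. The glia median (-0.24) was -0.41 with the libraries clustered separately and -0.17 in cells of 8000 to 16000 UMIs. TMM factors differed between libraries by -0.15 to -0.04 on the log2 scale across classes. The cause of these shifts was not tested, beyond what each alternative changes.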

Other observations

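Rare cells had their own profiles, on few cells. The 22 GelNB-CH and 2 Matrigel skeletal muscle-like cells read LAMA2, the alpha chain of the muscle sheet, at 426 and 410 CPM, above every larger class, and FRAS1 at 323 and 560 CPM. Hair cell-like cells, 15 in GelNB-CH and 12 in Matrigel, read FRAS1 at 95.7 and 113 CPM and LAMC1 at 52.2 and 54.1 CPM. The 78 melanocyte-like cells of GelNB-CH read NID1 at 68.2 CPM and COL18A1 at 110.2 CPM, and only 3 such cells were kept in Matrigel.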
